A study of Homo sapiens with 6 samples.

Results

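The genes described here are 55 that copy chromosomal DNA or supply its nucleotides, taken by symbol from a table of 26485 genes. All 55 were found, and all 55 passed the filter on low counts that left 13562 genes for testing. They were measured by stranded mRNA sequencing in HCC38, an established human triple negative breast cancer line, after silencing of CIP2A, an inhibitor of protein phosphatase 2A. Controls were 1 library from cells given transfection reagent only (mock, which the design text also calls a non-transfection control) and 1 library each from SCR#2 and SCR#3, a pair of siRNAs with no target. CIP2A was silenced with siCIP2A#1, siCIP2A#2 or siCIP2A#3, also with 1 library each. All libraries came from the same line, and Oligofectamine was the transfection reagent. No time after transfection was given in the labels, and each siRNA was represented by a single library.

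Replication starts with licensing: the origin recognition complex (ORC), CDC6 and CDT1 load the ring-shaped MCM helicase onto DNA. The kinase CDC7 with its activator DBF4, and the factors MCM10, CDC45 and GINS, then turn the helicase on, DNA polymerase alpha with primase lays down starts, and polymerases delta and epsilon extend them while held by the clamp PCNA. Ribonucleotide reductase, thymidylate synthase and thymidine kinase keep deoxynucleotides in supply. Many of these genes are switched on together before S phase by E2F transcription factors, so their RNA levels are widely used as a measure of how actively a culture cycles.

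Promoter sequences were available in the RefSeq table (GRCh38.p14) for 49 of the 55 genes, and they are shown because many of these genes are known targets of E2F factors. The letters TTTCGCGC and TTTGGCGC, forms of the E2F recognition element, were searched on both strands from 250 bases before to 50 bases after each start site in the table, with overlapping matches allowed. The 49 genes had 67 such windows, and a gene counted once if any of its windows held a match. At least 1 match was present in 15 of the 49 genes (30.6%), against 268 of 10614 tested genes with a promoter (2.52%) and 403 of all 35116 promoters in the table (1.15%). The 15 genes were CDC6, GMNN, MCM2, MCM3, MCM6, MCM7, GINS1, POLA1, POLA2, POLE, POLE2, DUT, DTL, UHRF1 and TIPIN, with the match of DUT, GMNN, TIPIN and UHRF1 at a start site other than the gene's first base in the annotation used. The sequence CCAAT was present in 29 of the 49 (59.2%, against 43.2% of tested genes), and TTTGAA, a form of the CHR element of G2/M genes, in 3 (6.12%, against 13.6%). Below are 4 promoters, each from 200 bases before the gene's first base and 220 bases long, 5′ to 3′ on the gene's strand, with E2F matches in capitals. All 4 were taken from the genes with a match. CDC6, MCM6 and POLA2 were lower in every CIP2A siRNA library than in every control, and POLA1 had the largest difference of the 55 with any single siRNA. GMNN, PRIM1 and TYMS were also lower in every CIP2A siRNA library, and of these PRIM1 and TYMS had no match.
CDC6: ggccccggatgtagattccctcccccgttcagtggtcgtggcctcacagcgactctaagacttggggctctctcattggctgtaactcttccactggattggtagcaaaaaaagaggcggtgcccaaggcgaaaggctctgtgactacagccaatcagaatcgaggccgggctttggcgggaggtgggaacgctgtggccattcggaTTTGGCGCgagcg
MCM6: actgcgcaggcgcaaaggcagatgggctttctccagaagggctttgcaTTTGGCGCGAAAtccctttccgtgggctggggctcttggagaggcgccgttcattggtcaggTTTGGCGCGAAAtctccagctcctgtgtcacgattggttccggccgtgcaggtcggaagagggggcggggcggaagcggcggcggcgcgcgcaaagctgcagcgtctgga
POLA2: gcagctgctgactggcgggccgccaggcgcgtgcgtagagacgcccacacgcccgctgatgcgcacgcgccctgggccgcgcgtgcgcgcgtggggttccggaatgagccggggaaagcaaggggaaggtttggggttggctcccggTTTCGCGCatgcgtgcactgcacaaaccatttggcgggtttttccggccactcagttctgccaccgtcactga
POLA1: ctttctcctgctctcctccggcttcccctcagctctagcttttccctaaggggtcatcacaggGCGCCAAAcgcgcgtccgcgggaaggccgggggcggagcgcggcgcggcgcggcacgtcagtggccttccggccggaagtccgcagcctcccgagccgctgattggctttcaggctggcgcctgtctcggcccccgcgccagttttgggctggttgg
The CDC6 stretch is chr17:40287679-40287898 on the plus strand, with its match starting 7 bases after the gene's first base, counted as 0. The MCM6 stretch is chr2:135876424-135876643 on the minus strand. It holds 4 matches in a pair of places, each place being 1 match on each strand that overlap, with first bases at -152, -148, -90 and -86. The POLA2 stretch is chr11:65261762-65261981 on the plus strand, with its match at -53, and the POLA1 stretch is chrX:24693718-24693937 on the plus strand, with its match at -137. A match is a string of letters and not a measured binding site.

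The libraries held 13995187 to 18161451 counts assigned to genes. Levels are given as CPM, a gene's counts scaled to the library's total after adjustment by edgeR's TMM factors. CIP2A itself was at 98.9 CPM in the mock, 99.8 in SCR#2 and 103 in SCR#3, and at 16.4 after siCIP2A#1, 45.8 after siCIP2A#2 and 19.3 after siCIP2A#3. The groups did not overlap, and siCIP2A#2 left the most CIP2A RNA. Tested one siRNA at a time against the 3 controls, CIP2A fell with each, with log2 differences of -2.62, -1.13 and -2.38 and adjusted p-values of 2.41e-04, 0.0165 and 4.68e-04 (edgeR's quasi-likelihood test, Benjamini-Hochberg adjustment over 13562 genes). With the 3 siRNAs taken as 1 group, the log2 difference of CIP2A was -1.90 (SE 0.30) with an adjusted p of 0.708 in the same test, and 1.20e-05 when siCIP2A#2 was left out. Keratins KRT8 and KRT18 were at 253 to 721 CPM, whereas EPCAM and CDH1 stayed at or below 1.22 and the basal keratins KRT5, KRT14 and KRT17 at or below 1 count in every library. The leukocyte, endothelial and adipocyte markers PTPRC, CDH5 and ADIPOQ were at 0 counts throughout. Nothing in the labels says that libraries of a group came from separate cultures, so p-values reflect how far these particular libraries scatter, which may be technical.

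Per kilobase of the longest coding transcript, the most abundant of the 55 in the controls was MCM7, a subunit of the replicative helicase, at 218 ± 24.5 CPM per kilobase (SD, n = 3). Thymidylate synthase (TYMS), which makes the thymine nucleotide, followed at 161 ± 12.5, and the helicase subunit MCM4 at 125 ± 10.2. PCNA, the sliding clamp, was at 102 ± 3.52 and POLD2, the second subunit of polymerase delta, at 98.3 ± 13.7, a pair whose order lies within their spread. The lowest were WDHD1, a scaffold that ties polymerase alpha to the helicase, at 7.94 ± 0.607, and POLD1, the catalytic subunit of polymerase delta, at 8.01 ± 2.25. In all, the 55 genes took 0.680% of the counts in the mock, 0.619% in SCR#2, 0.644% in SCR#3, 0.597% with siCIP2A#1, 0.577% with siCIP2A#2 and, after siCIP2A#3, 0.660%. The 2 lowest shares were those of siCIP2A#1 and siCIP2A#2, and siCIP2A#3 lay inside the range of the controls.

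**Figure D1:**
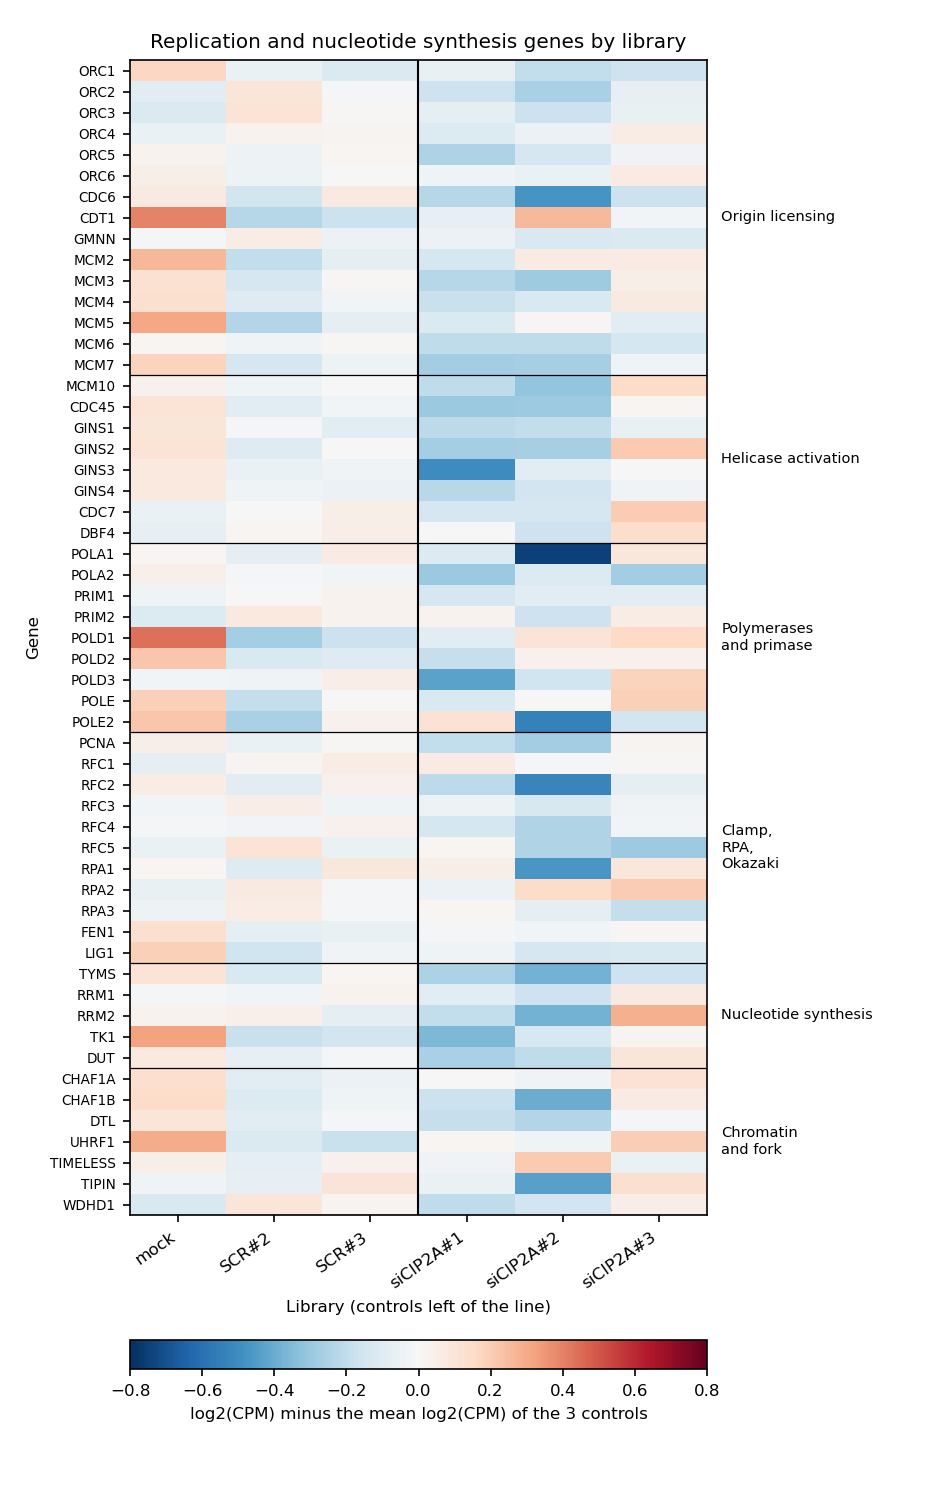
Each row is 1 of the 55 genes, grouped by role, and each column is 1 library. Colour gives log2 CPM minus the mean log2 CPM of the 3 controls, with blue below and red above. The columns of siCIP2A#1 and siCIP2A#2 are mostly blue, that of siCIP2A#3 is mixed, and the mock column holds the highest value of 29 of the 55 genes.

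The first comparison asked how these genes differ when CIP2A is silenced, with the 3 siRNAs against the 3 controls. No gene of the 55 passed the test. The log2 differences were small and mostly negative: 47 of 55 lay below 0, against 50.3% of all genes tested, with a median of -0.10 beside -0.001 over all genes and a range of -0.29 to 0.10. The count passing was 0 of 55, as it was 0% of all genes (edgeR's quasi-likelihood test, adjusted p under 0.05), and 0 by DESeq2 as well. At an unadjusted p under 0.05 there were 5 genes lower (CDC6, MCM6, POLA2, RFC2 and TYMS) and 0 higher, against 1.23% and 1.49% of all genes, and the smallest adjusted p of the 55 was 0.999. Without the mock the median was -0.08 and 42 genes lay below 0. With bulk RNA, fewer cells in S phase and less RNA per cell cannot be told apart.

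In 6 of the 55 genes, every siRNA library was below every control library, which was so for 4.38% of all genes: CDC6, GMNN, MCM6, POLA2, PRIM1 and TYMS. None lay above, against 3.26% of all genes. The count rested on which libraries entered. Without siCIP2A#3 it was 30 (54.5%, against 13% of all genes), and without SCR#2 it was 10 (18.2%, against 7.16%). Without SCR#3 and without siCIP2A#1 it was 9 (16.4% each, against 6.83% and 9.59%). It was near the share of all genes without the mock, at 8 (14.5%, against 11.5%), and without siCIP2A#2, at 6 (10.9%, against 9.62%). The 3 control and 3 siRNA libraries allow no exact permutation p below 0.1 for any single gene.

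Among the 15 licensing genes, 14 had a difference below 0, with a median of -0.11. CDC6, the loader that works with ORC, was at 74.6, 64.2 and 74.6 CPM in mock, SCR#2 and SCR#3 and at 60.5, 51.2 and 63.1 with the siRNAs in order. All 3 siRNA values were below the lowest control, SCR#2, and siCIP2A#2 was the lowest. The log2 difference was -0.29 (SE 0.11). MCM6, a helicase subunit, was at 256, 248 and 255 CPM in the controls and at 219.8, 220.2 and 229 with the siRNAs. Its groups stood apart with little spread within either, 253 ± 4.58 against 223 ± 5.33 (SD, n = 3 each), and the log2 difference was -0.18 (SE 0.08). MCM7 ran from 608 to 756 CPM in the controls and was at 551, 556 and 653 with the siRNAs, so siCIP2A#3 fell among the controls and the other pair lay below. Its log2 difference was -0.19 (SE 0.10). Geminin (GMNN), the inhibitor of CDT1, did not overlap between the groups but differed by only -0.09, and the libraries nearest to each other were SCR#3 at 94.5 and siCIP2A#1 at 94.4 CPM. The remaining MCM subunits (MCM2, MCM3, MCM4 and MCM5) had differences of -0.15 to -0.01. The ORC subunits ranged from -0.16 (ORC2) to -0.01 (ORC6), and only CDT1, the licensing factor, was above 0, at 0.04.

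All 8 genes of helicase activation had a difference below 0, with a median of -0.12. CDC45, which joins MCM and GINS in the active helicase, was at 62.8, 54.6 and 57.2 CPM in the controls and at 47.4, 47.5 and 58.8 with the siRNAs. The libraries of siCIP2A#1 and siCIP2A#2 were below all controls, and that of siCIP2A#3 was above SCR#2 and SCR#3; the log2 difference was -0.18 (SE 0.11). GINS1, a GINS subunit, was at 39.4, 36.4 and 34.7 CPM in the controls and at 31.8, 32.1 and 35.4 with the siRNAs, with siCIP2A#3 again among the controls and a log2 difference of -0.15 (SE 0.11). GINS3, another GINS subunit, was at 24.5, 22.4 and 22.7 CPM in the controls and at 16.4, 21.8 and 23.2 with the siRNAs, so that siCIP2A#1 alone stood far below, and the log2 difference was -0.18 (SE 0.14). GINS2, GINS4 and MCM10 had differences of -0.13 to -0.09, and the kinase CDC7 and its activator DBF4 of -0.01 and -0.003.

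Of the 9 polymerase and primase genes, 7 had a difference below 0 and the median was -0.11. POLA2, the regulatory subunit of polymerase alpha, was at 87.4, 84.1 and 83.6 CPM in the controls and at 69.2, 78.8 and 70.0 with the siRNAs. Every siRNA value was below every control, and siCIP2A#2 was the nearest to them, with a log2 difference of -0.23 (SE 0.09). The catalytic subunit POLA1 was at 120.5, 113 and 125 CPM in the controls and at 110.4, 70.9 and 127 with the siRNAs. The low mean came from siCIP2A#2: the log2 difference was -0.22 (SE 0.17) with all libraries and -0.01 without that one. PRIM1, the primase catalytic subunit, was at 55.1, 56.5 and 57.4 CPM in the controls and at 51.0, 52.8 and 53.2 with the siRNAs, which did not overlap although the log2 difference was only -0.11 (SE 0.09). Polymerase delta and epsilon subunits other than these ran from -0.17 (POLE2) to 0.03 (POLD1).

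Among the 11 genes of the clamp, its loader, the single-strand binding protein RPA and Okazaki fragment joining, 9 had a difference below 0 and the median was -0.09. RFC2, a clamp loader subunit, was at 117, 106 and 115 CPM in the controls and at 97.5, 78.2 and 107 with the siRNAs. The siCIP2A#3 library overlapped the controls and siCIP2A#2 was the lowest, and the log2 difference was -0.26 (SE 0.12). RFC5, another subunit, was at 85.5, 95.9 and 85.5 CPM in the controls and at 89.9, 75.2 and 72.6 with the siRNAs, where siCIP2A#1 lay within the controls and the other pair below; the log2 difference was -0.17 (SE 0.11). PCNA was at 142, 133 and 139 CPM in the controls and at 120.4, 114 and 139.9 with the siRNAs, with siCIP2A#3 inside the control range and a log2 difference of -0.15 (SE 0.10). The nuclease FEN1 and the ligase LIG1, which trim and join Okazaki fragments, had differences of -0.01 and -0.10, and RPA2, the middle RPA subunit, had the highest of the 55, 0.10.

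All 5 nucleotide synthesis genes had a difference below 0, with a median of -0.11. TYMS was at 287, 245 and 269 CPM in the controls and at 223, 205 and 238 with the siRNAs, every siRNA library below every control. Its log2 difference was -0.27 (SE 0.09). Thymidine kinase TK1, which salvages thymidine, was at 154, 109 and 112 CPM in the controls and at 96.2, 113 and 125 with the siRNAs. The mock stood above all 5 other libraries, and the log2 difference of -0.17 (SE 0.14) was 0.01 without it. The dUTPase DUT, which keeps uracil out of DNA, was at 103, 92.9 and 96.6 CPM in the controls and at 81.5, 84.6 and 104 with the siRNAs; siCIP2A#3 was above all controls and the log2 difference was -0.11 (SE 0.11). The ribonucleotide reductase subunits RRM1 and RRM2 had differences of -0.06 and -0.07.

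Of the 7 genes for chromatin assembly and fork protection, 4 had a difference below 0, with a median of -0.10. CHAF1B, a subunit of the histone chaperone CAF-1, was at 52.4, 43.9 and 46.4 CPM in the controls and at 42.1, 36.0 and 49.7 with the siRNAs, for a log2 difference of -0.16 (SE 0.13). DTL, the adaptor that directs CDT1 to degradation, was at 77.4, 68.2 and 71.5 CPM in the controls and at 63.7, 61.4 and 71.8 with the siRNAs, for -0.14 (SE 0.10). WDHD1 was at 43.7, 50.9 and 48.3 CPM in the controls and at 41.2, 42.6 and 49.3 with the siRNAs, for -0.10 (SE 0.11). In all 3 genes the siCIP2A#3 library lay within the control range and the other siRNAs lay below it. CHAF1A, UHRF1 and TIMELESS were above 0, at 0.03 to 0.05.

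**Figure D2:**
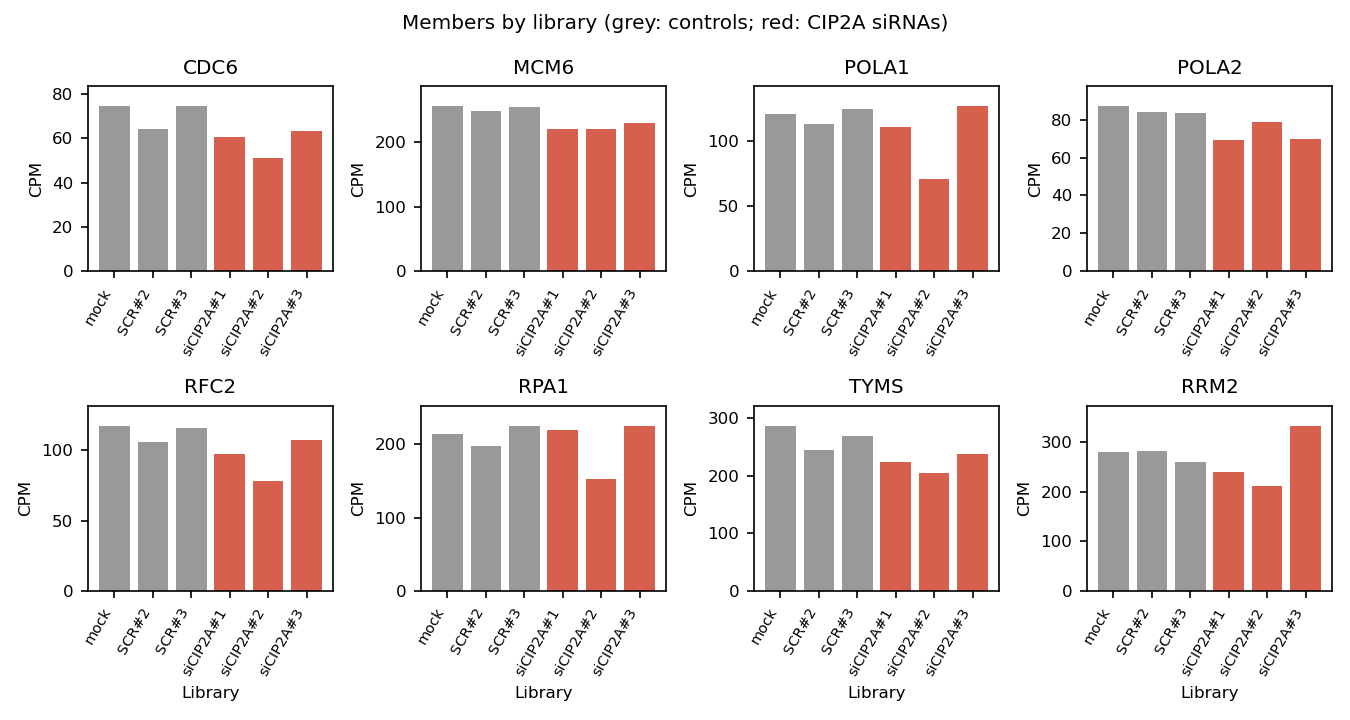
Bars give CPM per library (linear axes from 0) for 8 genes, with the 3 controls in grey and the 3 CIP2A siRNA libraries in red, 1 library per bar. CDC6, MCM6, POLA2 and TYMS were below every control in all 3 siRNA libraries, whereas POLA1, RFC2 and RPA1 were lowest with siCIP2A#2 and RRM2 was highest with siCIP2A#3.

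Other genes of the same processes were taken from lists of 31 origin and fork genes, 12 chromatin genes and 31 nucleotide metabolism genes that were tested, and 0 of them passed in either direction. Below 0 were 19 of 31, 11 of 12 and 22 of 31, with medians of -0.05, -0.07 and -0.05. KIAA0101, the PCNA-associated factor also named PCLAF, was at 71.5, 70.6 and 72.1 CPM in the controls and at 54.8, 54.9 and 62.1 with the siRNAs. Every siRNA library was below every control, and the log2 difference of -0.32 (SE 0.09) was the largest in these lists. Also among the origin and fork genes, MTBP, CLSPN and RNASEH2A had differences of -0.18, -0.20 and -0.18. Of the chromatin genes, RBBP4, CDCA7, SLBP and MMS22L were at -0.17, -0.19, -0.11 and -0.12. The folate enzyme SHMT1 and the purine enzymes PAICS and PRPS2 were at -0.23, -0.21 and -0.18.

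Genes of G2 and mitosis, from a list of 16, were also mostly below 0 (13 of 16, median -0.10), with AURKA at -0.19, CCNB1 at -0.15, NUSAP1 at -0.14 and BUB1 at -0.13. By library, the median log2 CPM of the 55 genes relative to the control mean was 0.05 in the mock, -0.05 in SCR#2, -0.01 in SCR#3, -0.14 with siCIP2A#1, -0.16 with siCIP2A#2 and, after siCIP2A#3, 0.02. For the G2/M list the medians were -0.01, -0.03, 0.03, -0.15, -0.19 and 0.04 in the same order. Both lists were lowest with siCIP2A#1 and siCIP2A#2, and the part of cell cycle position in these values was not tested. CIP2A RNA did not follow this order, since siCIP2A#3 left 19.3 CPM and siCIP2A#2 45.8.

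**Figure D3:**
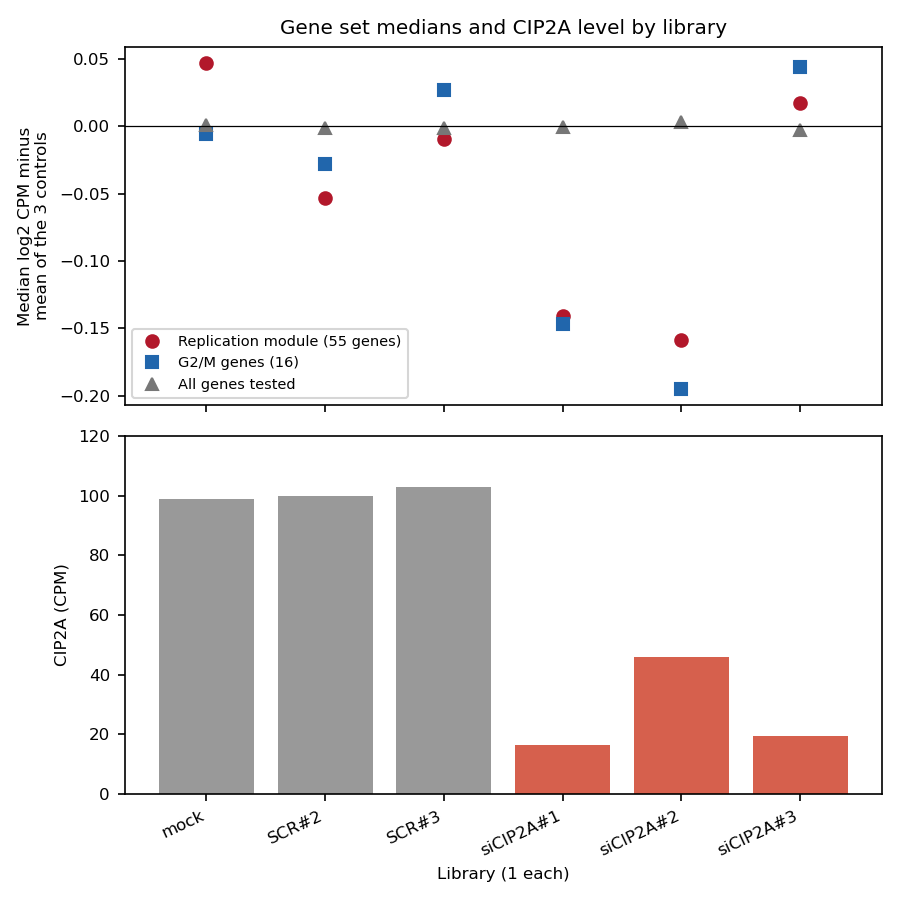
The upper panel gives, for each library, the median over genes of log2 CPM minus the control mean for the 55 genes, for 16 G2/M genes and for all genes tested. The lower panel gives CIP2A in CPM with 1 bar per library (grey controls, red CIP2A siRNAs). The 55-gene medians were -0.14 and -0.16 with siCIP2A#1 and siCIP2A#2 and 0.02 with siCIP2A#3, although CIP2A was lower with siCIP2A#3 than with siCIP2A#2.

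The 3 siRNAs were then each set against the 3 controls, which these comparisons share, with the spread taken from the controls alone. With siCIP2A#1, 47 of 55 genes were below 0 (51.2% of all genes) with a median of -0.14. With siCIP2A#2 it was 49 (50.6% of all genes) with a median of -0.16. With siCIP2A#3 it was 24 (52% of all genes) with a median of 0.01. None of the 55 passed in any of the 3 by edgeR's quasi-likelihood test (adjusted p under 0.05), where 0.118%, 0.0737% and 0.00737% of all genes passed. At an unadjusted p under 0.05, 7 genes were lower with siCIP2A#1, 13 with siCIP2A#2 and 2 with siCIP2A#3 (4.38%, 6.21% and 5.24% of all genes), and 0, 0 and 1 were higher (5.57%, 5.38% and 2.99%). These counts depend on the mock: with the spread taken from SCR#2 and SCR#3 alone, 8, 22 and 7 of the 55 passed (14.5%, 40% and 12.7%), but so did 13.8%, 22.4% and 9.65% of all genes. The shares with siCIP2A#1 and siCIP2A#3 were thus near those of all genes. With SCR#2 left out instead, 0, 1 and 0 of the 55 passed, beside 0.745%, 0.292% and 0.241% of all genes. The counts were the same with SCR#3 left out, beside 0.617%, 0.363% and 0.232% of all genes.

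Counted without a test, 33 of the 55 genes (60%) were below every control with siCIP2A#1, where 28.8% of all genes were. With siCIP2A#2 there were 40 (72.7%, against 30.7%) and with siCIP2A#3 there were 9 (16.4%, against 28.6%). The siCIP2A#1 and siCIP2A#2 libraries were both below every control in 30 genes (54.5%, against 13%). This was not particular to the 55. In the further lists it was so for 10 of 16 G2/M genes (62.5%) and 7 of 12 chromatin genes (58.3%). It was also so for 13 of 31 origin and fork genes (41.9%) and 11 of 31 nucleotide metabolism genes (35.5%). Among the 55, the same count was 6 for siCIP2A#1 with siCIP2A#3 (10.9%, against 9.62%) and 9 for siCIP2A#2 with siCIP2A#3 (16.4%, against 9.59%). Above every control were 1 gene with siCIP2A#1, the clamp loader subunit RFC1, 2 with siCIP2A#2 and 14 with siCIP2A#3, where 26.5%, 28.6% and 25.7% of all genes were. Both libraries of a pair lay above every control in 0, 0 and 1 genes, in the same order of pairs, against 10.7%, 8.36% and 7.57%. By role, the both-below genes were 7 of 8 in helicase activation, 8 of 15 in licensing, 4 of 5 in nucleotide synthesis, 4 of 9 among polymerases, 4 of 11 in the clamp and RPA group and 3 of 7 in the chromatin group. Of the 6 libraries, siCIP2A#2 was the lowest for 23 genes (41.8%, against 21.4% of all genes), siCIP2A#1 for 18 (32.7%, against 18.3%) and siCIP2A#3 for 2 (3.64%, against 20.7%).

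**Figure D4:**
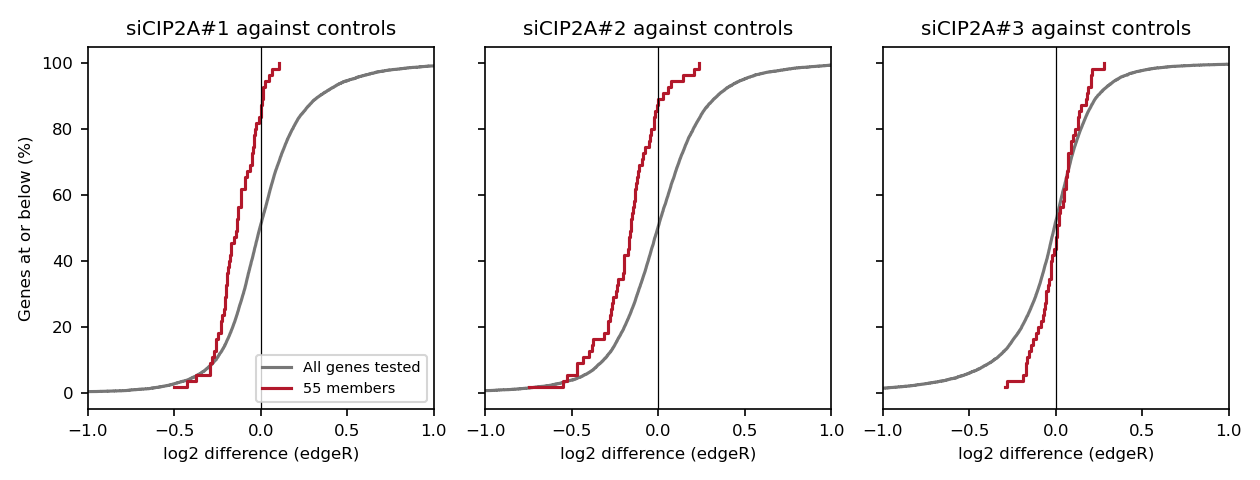
For each CIP2A siRNA, the lines give the percentage of genes at or below a log2 difference from the 3 controls (edgeR), in red for the 55 genes and in grey for all 13562 tested. The red line lies left of the grey at its middle for siCIP2A#1 (median -0.14) and siCIP2A#2 (median -0.16) and close to it for siCIP2A#3 (median 0.01).

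The single siRNAs differed in which genes stood out. With siCIP2A#2, POLA1 was at 70.9 CPM against 113 to 125 in the controls and lowest of all libraries, and the log2 difference was -0.75 (SE 0.11) with an adjusted p of 0.088 (edgeR's quasi-likelihood test). It passed by DESeq2 (adjusted p 4.45e-04), in edgeR without a filter on low counts (0.00219), and in edgeR with any 1 of the 3 controls left out (2.13e-08 without the mock, 0.00960 without SCR#2 and 0.0349 without SCR#3). With RLE factors in place of TMM factors, POLA1 did not pass in edgeR. Fits with 1 control left out took their spread from the remaining controls alone, with 1 residual degree of freedom. They reuse the same siCIP2A#2 library and are not independent tests of POLA1. RFC2 was at 78.2 CPM with siCIP2A#2 against 106 to 117 in the controls, a log2 difference of -0.53 (SE 0.11). RPA1, the large subunit of RPA, was at 214, 197 and 226 CPM in the controls, 219 and 226 with siCIP2A#1 and siCIP2A#3, and 154 with siCIP2A#2, a log2 difference of -0.47 (SE 0.11). For both genes siCIP2A#2 was the lowest library, and the adjusted p-values of 0.212 and 0.242 (edgeR) did not pass. Without the mock they were 1.16e-05 and 6.42e-05, without SCR#2 0.144 and 0.143, and without SCR#3 0.344 and 0.465 (edgeR). CDC6, TYMS, RRM2 and POLE2 were at -0.47, -0.38, -0.38 and -0.55 with siCIP2A#2.

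With siCIP2A#1 the smallest p-values were those of POLD3, GINS3 and POLA2. POLD3, a subunit of polymerase delta, was at 42.3, 42.2 and 44.5 CPM in the controls, 31.9 with siCIP2A#1, 38.5 with siCIP2A#2 and 48.6 with siCIP2A#3. The controls were close to each other, siCIP2A#1 was lowest and siCIP2A#3 was above them, and the log2 difference with siCIP2A#1 was -0.43 (SE 0.12). GINS3 was at -0.51 (SE 0.14) and POLA2 at -0.30 (SE 0.11) with siCIP2A#1. Their adjusted p-values were 0.257, 0.262 and 0.393 (edgeR). Without the mock they were 0.00139, 0.00800 and 0.0118, without SCR#2 0.383, 0.348 and 0.685, and without SCR#3 0.744, 0.501 and 0.923 (edgeR).

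With siCIP2A#3, RRM2, the small subunit of ribonucleotide reductase, was at 333 CPM, above the controls at 279.7, 282 and 261 and above siCIP2A#1 and siCIP2A#2 at 239.0 and 211. The library of siCIP2A#3 was the highest of the 6, and the log2 difference was 0.28 (SE 0.09). POLA2 was at -0.28 (SE 0.11) and RFC5 at -0.29 (SE 0.12) with siCIP2A#3. Their adjusted p-values were 0.533, 0.574 and 0.591 (edgeR). Without the mock they were 0.00248, 0.0279 and 0.00868, without SCR#2 0.693, 0.846 and 0.924, and without SCR#3 0.9998 for all 3 (edgeR).

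Each siRNA was a single library, so in comparisons between siRNAs the spread again came from the controls alone. Set against each other directly, the siRNA libraries gave 47 of 55 genes higher with siCIP2A#3 than with siCIP2A#2 (48.4% of all genes), with a median of 0.18. Lower with siCIP2A#1 than with siCIP2A#3 were 47 of 55 (49.6% of all genes), with a median of -0.17. Between siCIP2A#1 and siCIP2A#2 the median was 0.03 and 30 genes were higher with siCIP2A#1 (49.2% of all genes). No gene of the 55 passed in the 3 pairs by edgeR's quasi-likelihood test, where 0%, 0.509% and 0.0147% of all genes passed. At an unadjusted p under 0.05, 12 genes were higher with siCIP2A#3 than with siCIP2A#2 and 0 lower (7.37% and 8.24% of all genes). Lower with siCIP2A#1 than with siCIP2A#3 were 7, and 0 were higher (5.6% and 7.96%); between siCIP2A#1 and siCIP2A#2, 4 were higher and 1 lower (6.71% and 5.38%). By DESeq2, 2 of the 55 differed between siCIP2A#3 and siCIP2A#2: POLA1 by 0.85 (SE 0.18, adjusted p 0.00167) and RRM2 by 0.67 (SE 0.16, adjusted p 0.00750). In edgeR these differences were 0.84 (SE 0.13, adjusted p 0.093) and 0.66 (SE 0.12, adjusted p 0.105). Without the mock, 22, 16 and 8 of the 55 passed in edgeR in the 3 pairs (40%, 29.1% and 14.5%), beside 22%, 18% and 16.7% of all genes. With SCR#2 left out instead, 2, 0 and 0 of the 55 passed, beside 1.01%, 1.76% and 0.826% of all genes. The counts were the same with SCR#3 left out, beside 0.784%, 1.55% and 0.734% of all genes. For DESeq2, the counts among all 13562 genes entered are given for these pairs with the other alternatives below.

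The controls were also compared with each other, the non-targeting siRNAs against the mock. None of the 55 passed, as 0% of all genes did by edgeR's quasi-likelihood test, and none by DESeq2. The median was -0.07 with 37 of 55 below 0 (49.6% of all genes), and at an unadjusted p under 0.05 there were 7 genes lower and 0 higher with the non-targeting siRNAs, against 5.18% and 1.14% of all genes. The mock was the highest of the 6 libraries for 29 genes (52.7%, against 17.6% of all genes). The 7 lower genes included CDT1, at 94.2 CPM in the mock, 61.2 in SCR#2 and 63.5 in SCR#3, a log2 difference of -0.60 (SE 0.16). POLD1 was at 37.3, 22.8 and 24.4 CPM in the same order, a log2 difference of -0.66 (SE 0.16). In both genes the siRNA libraries for CIP2A lay between, at 68.3 to 85.6 CPM for CDT1 and 25.9 to 30.7 for POLD1. MCM5 and MCM2 differed by -0.46 and -0.40, TK1 by -0.48, UHRF1, a maintenance factor of DNA methylation, by -0.44, and POLD2 by -0.34. The adjusted p-values of the 7 ran from 0.610 to 0.755 (edgeR).

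**Figure D5:**
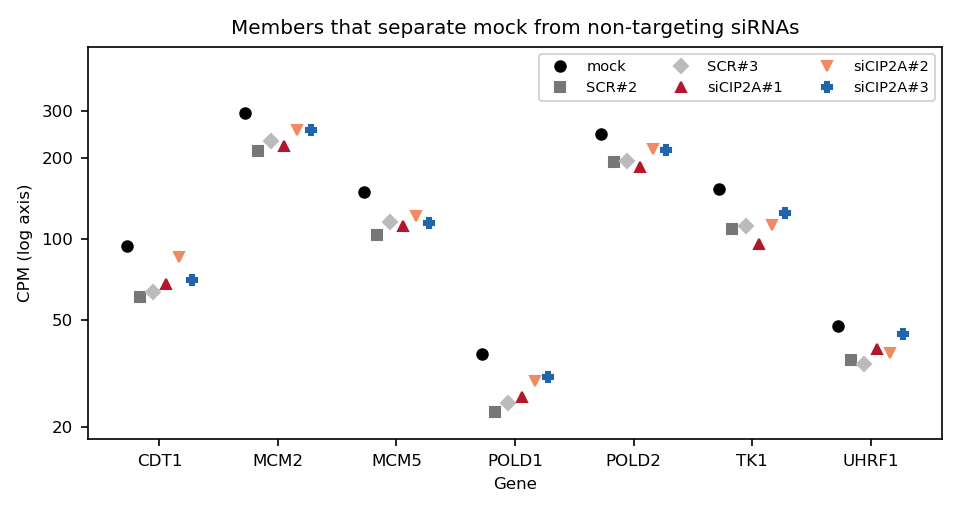
Points give CPM on a log axis in the 6 libraries for the 7 genes with an unadjusted p under 0.05 between the non-targeting siRNAs and the mock. The mock (black circle) is the highest library for each gene, and CDT1 was at 94.2 CPM in it against 61.2 and 63.5 in SCR#2 and SCR#3.

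Promoter letters and differences were set side by side as a description. The 15 genes with an E2F match had a median log2 difference of -0.15 in the group comparison, and the 34 without had -0.10. With siCIP2A#1 the medians were -0.18 and -0.13, with siCIP2A#2 -0.20 and -0.16, and with siCIP2A#3 -0.01 and 0.01. The ranges overlapped in every case. Of the genes below every control in all 3 siRNA libraries, CDC6, GMNN, MCM6 and POLA2 had a match, and PRIM1 and TYMS had none. Exons of 13 of the 55 genes, MCM2, MCM7, PRIM1, RFC4, RFC5, RPA1 and TYMS among them, overlap a coding gene on the other strand, and 10 have named pseudogenes (8 for DUT and 3 each for PCNA, RPA2 and RRM2). The values of these genes are uncertain, because neither the strand setting nor the treatment of reads with several matches is given in the sources used here.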

How the data were processed

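Stranded mRNA libraries (TruSeq, per the labels' protocols) from HCC38 were analysed, 3 controls and 3 CIP2A siRNAs, 6 in all. The deposited values are raw read counts for each gene, in 1 table; per the submitters' processing notes the tools were bcl2fastq 2.17, STAR 2.5.4b and Subread 1.5.1, with build hg38. Neither annotation nor strand setting is given in the sources used here. In the deposited counts, 51 gene symbols had turned into dates; 50 were restored by Entrez identifier and 1 was not resolved.

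Counts were tested with edgeR 4.0.16 (R 4.3.3), quasi-likelihood with robust estimation, TMM factors and a filter at a minimum count of 10 (13562 genes tested), with Benjamini-Hochberg adjustment and a threshold of 0.05. The CPM values printed are scaled by the TMM factors, marker values and shares of counts by total count. The group fit had 4 residual degrees of freedom, the fit with each siRNA as its own level 2 (controls only), and that with mock, non-targeting and CIP2A siRNAs as levels 3. Per-library medians used log2 CPM with a prior count of 2. Same-group libraries differed by more than sampling noise (chi-square per degree of freedom 3.22 to 18.1 over genes). Since they also differed in the siRNA or mock treatment given, this cannot show separate cultures, and each was taken as 1 sample. Depths were 13995187 to 18161451 counts, and with 1 library per siRNA the spread within an siRNA was not measured. Coordinates came from RefSeq on GRCh38.p14, and transcript lengths and exon overlaps from GENCODE 29.

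The 55 genes and all lists were chosen with earlier results of these data known. Genes given in every library were, per role, the 3 with the smallest unadjusted p in the group comparison, plus the 3 smallest per single siRNA. Up to 4 from each further list, by the same p, were named, most by their log2 difference only. Of these, 1 gene of a further list is not reported here. Alternatives were DESeq2 1.42.0, limma-voom (limma 3.58.1), RLE and upper quartile factors, no filter, a CPM filter, mock as its own level, a replicate block, and each library left out. The script was tested on simulated data. The labels do not say that the replicate numbers pair the libraries, so they were not taken as pairs. Same-numbered libraries did not deviate together (correlations -0.12, -0.13 and 0.01), but each had its own siRNA or mock treatment, so this cannot exclude pairing.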

Additional observations from a re-analysis of the deposited data

How the results depend on the processing

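With siCIP2A against control, the 55-gene median stayed between -0.18 (without siCIP2A#3) and -0.07 (without siCIP2A#2) and 0 of the 55 passed in every alternative run, with 42 to 51 below 0 when 1 library was left out. Over all genes, 3 passed by DESeq2, 3 without a filter, 1 with a replicate block and 0 to 1 with 1 library left out. The block, whose numbers are not said to pair the libraries, changed no call of the 55 (median -0.11, 47 below 0). CIP2A passed with the block (-2.03, adjusted p 0.0345, edgeR). TK1 turned to 0.011 with mock as its own level and ranged from -0.26 to 0.011 with 1 library left out, and MMS22L from -0.22 to 0.026. With 1 library left out, genes of the 55 that were lower with no overlap numbered 6 to 30 (10.9% to 54.5%). The share of all genes was 6.83% to 13%. The cause was not tested.

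For single siRNAs, DESeq2, no filter and 1 control left out gave 75, 169 and 85 to 1896 genes with siCIP2A#1, 61, 109 and 40 to 3088 with siCIP2A#2, and 29, 44 and 32 to 1330 with siCIP2A#3. Of the 55, 0 to 8, 1 to 22 and 0 to 7 passed with 1 control left out, and with siCIP2A#2 also 1 by DESeq2 and 2 without a filter. The siCIP2A#3 median ran from -0.023 to 0.053. Between siRNAs the gene counts were 89, 156 and 101 to 2302 (siCIP2A#1 against siCIP2A#2), 96, 211 and 108 to 3026 (siCIP2A#3 against siCIP2A#2) and 144, 305 and 213 to 2477 (siCIP2A#1 against siCIP2A#3). Members passing numbered 1 without a filter and 0 to 8, then 2 by DESeq2, 3 without a filter and 2 to 22, then 1 without a filter and 0 to 16. The highest counts were those without the mock. In these comparisons every fit with 1 control left out had 1 residual degree of freedom, whichever control it was. Non-targeting siRNAs against mock gave 3 genes by DESeq2 and 5 without a filter.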

Other observations

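Genes of the further lists that stood far from the controls with siCIP2A#2, chosen after their values were seen, included DSCC1, part of an alternative clamp loader. It was at 25.2, 26.3 and 33.2 CPM in mock, SCR#2 and SCR#3, at 30.9 and 30.7 with siCIP2A#1 and siCIP2A#3, and at 14.7 with siCIP2A#2, a log2 difference of -0.94 (SE 0.19). CLSPN, a checkpoint mediator at the fork, and MCM8, a helicase of recombination, were at -0.50 (SE 0.11) and -0.49 (SE 0.12). For DSCC1 the other siRNA libraries lay within the control range. None of the 3 passed the test (adjusted p of 0.192, 0.237 and 0.249, edgeR's quasi-likelihood test).

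Between the non-targeting siRNAs and the mock, RECQL4, a helicase of replication initiation, was at 42.2 CPM in the mock and at 29.3 and 28.2 in SCR#2 and SCR#3. IMPDH1, an enzyme of guanine nucleotide synthesis, was at 42.15 CPM in the mock, 29.4 in SCR#2 and 30.1 in SCR#3. In both genes the mock was the highest of the 6 libraries. These were also chosen after their values were seen.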
